A study of Mus musculus with 4 samples.

Results

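The clustered Hox genes of the mouse were followed in single cells from the caudal part of WT and *Grhl3*-null embryos. The members were 38 named genes of the *HoxA*, *HoxB*, *HoxC* and *HoxD* clusters, and they were taken by their names. This set was chosen with earlier results of these data known. They stood on 39 of the 31055 gene rows, since *Hoxd4* was listed under 2 gene identifiers. The embryos were at embryonic day 8.5, with 6 to 7 somites. WT cells came from a pool of 5 embryos, and *Grhl3*-null cells from a pool of 3 embryos homozygous for a null allele of *Grhl3*, a transcription factor gene of the surface ectoderm, on a C57BL/6 background. The null allele is constitutive, so every tissue of these embryos was mutant, and nothing in the files traces a cell to its embryo. 2 droplet reactions were run on each pool, giving 4 libraries. The p-values below set 1 pool against another, so variation from embryo to embryo is not part of them.

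Hox genes encode homeodomain transcription factors that give each level of the body axis its identity. The genes of a cluster lie in the order in which they come on during axis elongation, so that genes at the 3′ end of a cluster (low paralogue group numbers) act early and rostrally and genes at the 5′ end (high numbers) act late and caudally. In the caudal end of the embryo their onset depends on Wnt and Fgf signals and on the caudal-type factors *Cdx1*, *Cdx2* and *Cdx4*, while genes of the last groups slow axis elongation and give lumbar, sacral and tail levels their form.

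The 4 libraries kept between 4781 and 5459 cells and between 209833527 and 226723903 UMIs (unique molecular identifiers, each marking a captured transcript) after the filters on quality. Hox genes took 0.181% and 0.188% of the UMIs in WT and 0.168% and 0.167% in *Grhl3*-null. The targeted gene, *Grhl3*, gave 878 and 803 UMIs in WT against 12 and 14 in *Grhl3*-null, which matches the labels. The caudal markers *T* (97.7 to 134 CPM, a gene's UMIs scaled to the same total in each library or class) and *Cdx2* (172 to 217) were high in every library, while the head and heart markers *Otx2*, *Six3*, *Nkx2-5* and *Egr2* each had at most 0.335 CPM. Between 5 and 7 cell barcodes were shared by each pair of libraries. Cells were put into classes by markers that held no Hox gene, and the Hox genes were left out of the clustering. A class called X-like is one that carries the markers of X.

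The promoters of the genes that moved together in the results below are shown for reference. They are the 250 bases before the start of *Hoxd11*, *Hoxd10*, *Hoxa10* and *Hoxa11* on the sense strand of each gene, from RefSeq on GRCm38.p6. Capitals mark TTTAT or its reverse complement ATAAA, the core of the sequence bound by caudal-type factors.
Hoxd11 (chr2:74679308-74679557, plus strand): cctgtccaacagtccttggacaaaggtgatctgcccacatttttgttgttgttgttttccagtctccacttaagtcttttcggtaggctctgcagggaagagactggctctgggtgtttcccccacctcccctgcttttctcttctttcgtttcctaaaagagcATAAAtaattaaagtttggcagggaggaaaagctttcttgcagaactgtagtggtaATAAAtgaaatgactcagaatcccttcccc
Hoxd10 (chr2:74691641-74691890, plus strand): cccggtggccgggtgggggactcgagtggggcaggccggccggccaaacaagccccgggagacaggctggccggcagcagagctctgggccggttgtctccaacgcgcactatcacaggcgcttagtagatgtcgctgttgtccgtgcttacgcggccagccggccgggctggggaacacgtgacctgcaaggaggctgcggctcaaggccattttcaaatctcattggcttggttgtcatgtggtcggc
Hoxa10 (chr6:52240855-52241104, minus strand): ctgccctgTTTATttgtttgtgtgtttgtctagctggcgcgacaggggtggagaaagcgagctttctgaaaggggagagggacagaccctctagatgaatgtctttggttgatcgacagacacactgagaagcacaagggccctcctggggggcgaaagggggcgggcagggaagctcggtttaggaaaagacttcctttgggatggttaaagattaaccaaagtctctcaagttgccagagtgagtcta
Hoxa11 (chr6:52245811-52246060, minus strand): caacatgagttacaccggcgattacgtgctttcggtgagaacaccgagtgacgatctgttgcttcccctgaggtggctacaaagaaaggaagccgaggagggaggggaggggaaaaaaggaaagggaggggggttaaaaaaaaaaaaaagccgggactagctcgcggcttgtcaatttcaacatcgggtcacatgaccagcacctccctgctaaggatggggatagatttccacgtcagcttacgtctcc

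The *Hoxd11* stretch held the motif at 2 places and the *Hoxa10* stretch at 1 place, and the letters were absent from the windows of *Hoxd10* and *Hoxa11*. *Hoxd11* and *Hoxa10* each have a further start in the table, with 0 and 1 matches. Among the 24 Hox promoters in the table, which belonged to 22 members, 9 held the motif (37.5%), against 12241 of all 32851 promoters (37.3%). The motif was therefore as frequent before Hox genes as before other genes. The promoters of *Hoxc10* and *Hoxc11* were not in the table.

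In the genome (mm10, placed with GENCODE M21), the 10 *HoxA* members lay at chr6:52162417-52260880 on the minus strand and the 10 *HoxB* members at chr11:96194316-96368256 on the plus strand. The 9 *HoxC* members lay at chr15:102921103-103036852 and the 9 *HoxD* members at chr2:74668310-74765142, both on the plus strand. *Hoxc10* and *Hoxc5* share exon bases on the same strand, as do *Hoxd3* and *Hoxd4*. *Hoxd10* and *Hoxd11* share exon bases with the predicted transcript *Gm28309*. For *Hoxd4* (ENSMUSG00000101174) the overlap with *Gm28230* reaches the last 500 exon bases, where a 3′ kit reads, so its counts are uncertain. The other identifier of *Hoxd4* (ENSMUSG00000115956) was not in this annotation.

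*HoxB* gave the most UMIs of the clusters and *HoxD* the fewest. The summed level of *HoxB* was 776 and 806 CPM in WT and 792 and 785 CPM in *Grhl3*-null. *HoxC* gave 517 and 536 in WT and 429 and 424 in *Grhl3*-null, *HoxA* 375 and 390 against 353 and 354, and *HoxD* 141 and 148 against 104 and 103. The genotypes overlapped for *HoxB* and stood apart for the other clusters, which were lower in *Grhl3*-null. Counts of a 3′ kit are per transcript end and are not scaled by length, and genes differ in how well their ends are captured, so levels of different genes are given side by side without a test.

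The most abundant members belonged to the middle of the clusters. *Hoxb9*, which acts in the thoracic region, had 230 and 248 CPM in WT and 271 and 269 in *Grhl3*-null. *Hoxc8*, of the same region, had 179 and 190 CPM in WT and 185 and 188 in *Grhl3*-null. *Hoxa7* had 123 and 126 against 124 and 126 CPM. For *Hoxc8* and *Hoxa7* the libraries of the genotypes overlapped, whereas both *Hoxb9* values were higher in *Grhl3*-null. At the rostral end, *Hoxb2*, a regulator of hindbrain segments, had 117 and 118 CPM in WT and 99.9 and 101 in *Grhl3*-null. *Hoxa3* had 44.3 and 47.2 against 44.4 and 44.3 CPM, and *Hoxd1* 45.4 and 46.9 against 46.6 and 46.4 CPM. *Hoxb4* had 90.9 and 92.7 against 96.2 and 91.7 CPM, *Hoxa5* 42.5 and 44.3 against 49.9 and 51.7 CPM, and *Hoxc4* 67.3 and 68.7 against 69.9 and 66.7 CPM. Of these 6 genes, *Hoxb2* and *Hoxa5* alone had genotypes that did not overlap. *Hoxd4* was low (ENSMUSG00000115956, 3.39 and 3.46 against 3.17 and 3.53 CPM). *Hoxb8* had 93.9 CPM in each WT library and 105 and 102 in *Grhl3*-null, and *Hoxd8* 17.2 and 18.4 against 13.3 and 13 CPM. The remaining members of groups 2 to 7, which were *Hoxa2*, *Hoxa4*, *Hoxa6*, *Hoxb3*, *Hoxb5*, *Hoxb6*, *Hoxb7*, *Hoxc5*, *Hoxc6* and *Hoxd3*, had mean WT levels from 1.01 (*Hoxa6*) to 97.8 CPM (*Hoxc6*) and log2 fold changes from -0.68 (*Hoxa6*) to 0.12 (*Hoxb5*).

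The strongest genotype differences lay in paralogue groups 10 and 11, whose members pattern the lumbar and sacral levels and whose 6 genes all fell in *Grhl3*-null. Over all filtered cells, *Hoxc10* (ENSMUSG00000022484) had 62.1 and 63.9 CPM in the WT libraries and 7.12 and 7.89 CPM in the *Grhl3*-null libraries. *Hoxd11* (ENSMUSG00000042499) had 10.3 and 10.6 CPM in WT and 1.57 and 1.36 in *Grhl3*-null. *Hoxa10* (ENSMUSG00000000938) had 24.2 and 25.8 CPM in WT and 9.99 and 9.23 in *Grhl3*-null. The libraries of each genotype lay close together and far from those of the other genotype. *Hoxd10* (ENSMUSG00000050368) had 5.92 and 6.04 against 1.61 and 1.53 CPM. *Hoxa11* (ENSMUSG00000038210), needed for sacral vertebrae and the forearm, had 2.74 and 2.64 against 1.27 and 1.18 CPM. *Hoxc11* (ENSMUSG00000001656) had 0.984 and 0.929 against 0.314 and 0.334 CPM, from 223 and 205 against 71 and 70 UMIs. The genotypes did not overlap for any of these 6 genes. In sums over all cells, fewer cells of a type and less RNA per cell cannot be told apart. By edgeR (quasi-likelihood, p adjusted by Benjamini-Hochberg over all genes), *Hoxc10* fell by 3.10 ± 0.0377 (SE) on the log2 scale (adjusted p = 1.81e-08), *Hoxd11* by 2.86 ± 0.0639 (adjusted p = 4.6e-07) and *Hoxd10* by 1.95 ± 0.0595 (adjusted p = 1.79e-06). *Hoxc11* fell by 1.59 ± 0.123 (edgeR, adjusted p = 0.000108), *Hoxa10* by 1.41 ± 0.0465 (adjusted p = 2.56e-06) and *Hoxa11* by 1.16 ± 0.0792 (adjusted p = 6.34e-05).

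**Figure D1:**
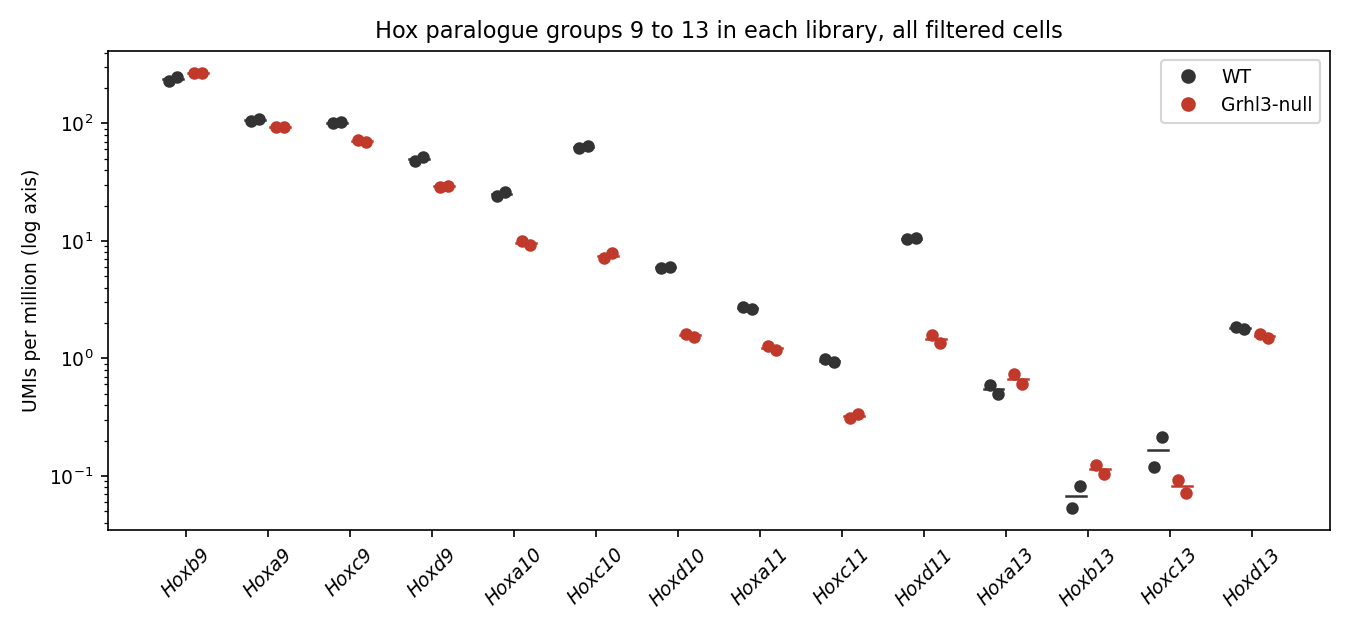
Level of each tested Hox gene of paralogue groups 9 to 13 in all filtered cells, in CPM on a log axis. Each point is a library and each short line the mean of the 2 libraries of a genotype. *Hoxc10* lies at 62.1 and 63.9 in WT and at 7.12 and 7.89 in *Grhl3*-null, and *Hoxb9* at 230 and 248 in WT and at 271 and 269 in *Grhl3*-null.

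These 6 genes were the only members called over all cells, where calls required both an adjusted p below 0.05 and a change of 1 or more on the log2 scale. They were 6 of the 37 rows tested, and 0.909% of all genes tested were called lower. No member was called higher. On the adjusted p alone, 20 rows were lower and 4 higher, against 18.5% of all genes lower and 17.1% higher. The median log2 fold change of the tested Hox rows was -0.23, beside 0.0026 for all genes. In group 9, *Hoxd9* had 47.5 and 51.8 CPM in WT and 28.9 and 29.4 in *Grhl3*-null and fell by 0.80 on the log2 scale (edgeR, adjusted p = 1.4e-05). *Hoxc9* had 99.9 and 103 against 71.9 and 69.0 CPM and fell by 0.56 (edgeR, adjusted p = 2.04e-05). *Hoxa9* had 104 and 109 against 93.7 and 92.2 CPM and fell by 0.22 (edgeR, adjusted p = 0.000929). *Hoxb9*, the remaining gene of the group, rose by 0.14 (edgeR, adjusted p = 0.0157). Thus 3 genes of group 9 fell and 1 rose by the adjusted p, each by less than the size a call needed.

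No gene of the last groups, which end axis elongation and form the tail, the hindgut and the digits, was called over all cells, although *Hoxd13* was called lower in gut-like cells and *Hoxd13* and *Hoxa13* in mesenchyme 2-like cells. *Hoxd13* had 1.84 and 1.77 CPM in WT and 1.61 and 1.48 in *Grhl3*-null and fell by 0.26 (edgeR, adjusted p = 0.0474). *Hoxa13* had 0.595 and 0.498 against 0.734 and 0.610 CPM, *Hoxb13* 0.0529 and 0.0815 against 0.124 and 0.105, and *Hoxc13* 0.119 and 0.213 against 0.0929 and 0.0715, with adjusted p from edgeR of 0.209, 0.104 and 0.055. *Hoxb13* rested on 12 to 28 UMIs a library and *Hoxc13* on 15 to 47, so that modest differences were not detectable at this depth. *Hoxc12* and *Hoxd12* had at most 8 UMIs in a library and were not tested. In groups 1 to 3, 4 of 7 genes fell and 0 rose by the adjusted p, of which *Hoxb1*, an early gene of the hindbrain and caudal mesoderm, had 93.9 and 98.0 against 68.6 and 71.3 CPM. In groups 4 and 5, 1 of 8 rows fell and 2 rose, and in groups 6 to 8, 5 of 8 genes fell and 1 rose. All of these differences were under 1 on the log2 scale.

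**Figure D2:**
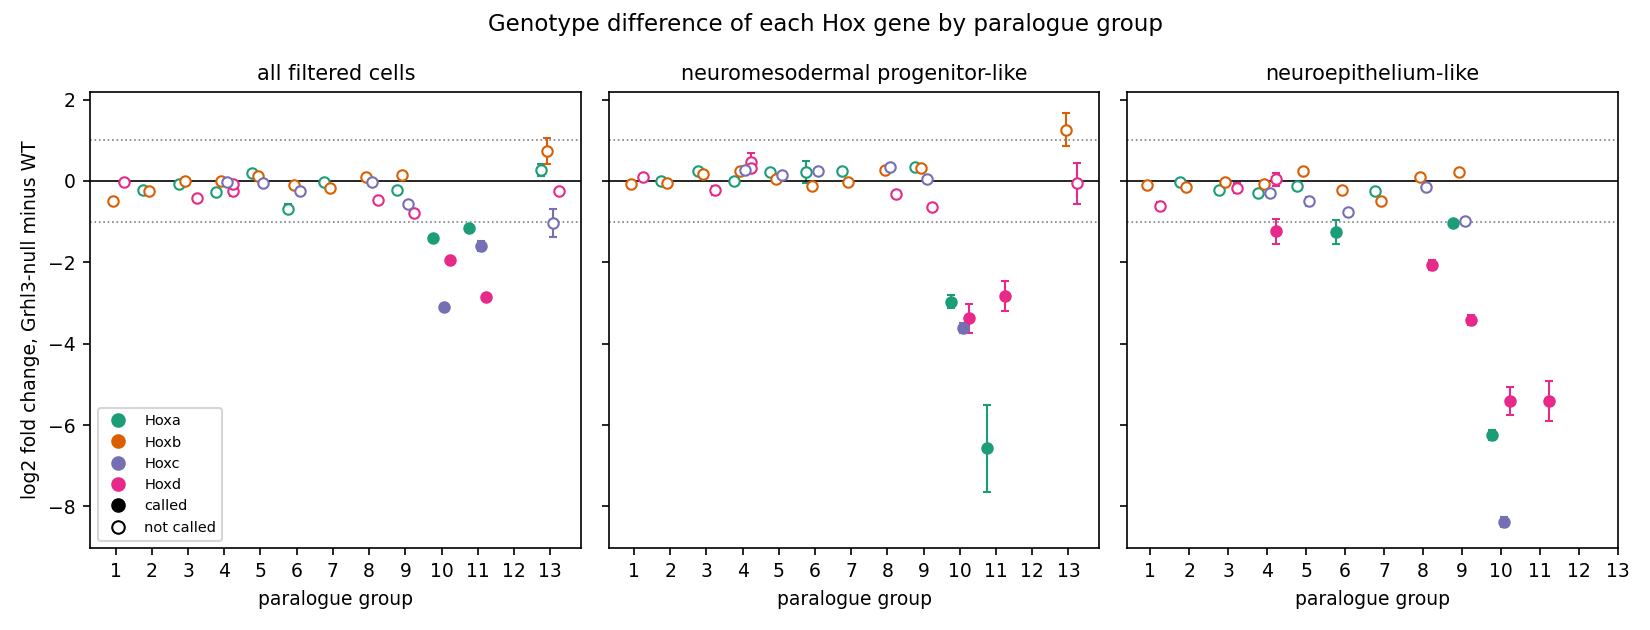
Log2 fold change (*Grhl3*-null minus WT) of every tested Hox gene against its paralogue group, in all filtered cells, neuromesodermal progenitor-like cells and neuroepithelium-like cells. Bars are standard errors, colours give the Hox cluster, filled points are called genes and dotted lines mark -1 and 1. In each panel the tested genes of groups 10 and 11 are called lower, and in neuroepithelium-like cells 5 genes of groups 4 to 9 are called too.

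Neuromesodermal progenitors are the stem-like cells of the tail end that feed both spinal cord and paraxial mesoderm. This class held 833 and 803 cells in the WT libraries and 716 and 671 in the *Grhl3*-null libraries. Here *Hoxc10* had 15.0 and 17.3 CPM in WT and 1.34 and 1.32 in *Grhl3*-null, a fall of 3.61 ± 0.127 on the log2 scale (edgeR, adjusted p = 1.14e-08). *Hoxa10* had 6.14 and 6.34 against 0.752 and 0.856 CPM and fell by 2.97 ± 0.157 (edgeR, adjusted p = 5.59e-07). *Hoxd10* had 1.28 and 1.26 against 0.139 and 0.0987 CPM, and *Hoxd11* 1.96 and 1.24 against 0.195 and 0.263 CPM. The genotypes did not overlap for these genes. *Hoxa11* had 14 and 11 UMIs in WT and 0 and 0 in *Grhl3*-null, which makes it at least 7.32-fold lower (3 UMIs over both *Grhl3*-null libraries). These 5 of 34 tested rows were called lower, against 0.519% of all genes, and 4 were called without either WT library.

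Counted on the adjusted p alone, 11 Hox rows were higher and 7 lower in neuromesodermal progenitor-like cells, against 8.02% and 10.8% of all genes, and the 7 lower rows held the 5 called genes. *Hoxc8* had 316 and 317 CPM in WT and 398 and 410 in *Grhl3*-null and rose by 0.34. *Hoxa9* had 151 and 158 against 195 and 201 CPM and rose by 0.34, and *Hoxb9* 314 and 319 against 402 and 394 CPM and rose by 0.32. None of these ranges overlapped. The rows that rose lay in groups 3 to 9. *Hoxd9* had 31.7 and 35.3 against 20.3 and 23.3 CPM and fell by 0.64. *Hoxb13* had the highest log2 fold change of the Hox rows (1.26), from 7 and 6 against 14 and 14 UMIs, and was not called (edgeR, adjusted p = 0.0537). The median log2 fold change of the Hox rows was 0.08, beside 0.0057 for all genes.

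In neuroepithelium-like cells, which form the neural plate and early spinal cord, genes of groups 4 to 11 were called lower. The call in group 4 came from the *Hoxd4* identifier ENSMUSG00000101174 only. The class held 521 and 482 WT cells and 631 and 675 *Grhl3*-null cells. *Hoxc10* had 126 CPM in each WT library (2781 and 2657 UMIs) and 0.604 and 0.153 CPM in the *Grhl3*-null libraries (16 and 4 UMIs). It fell by 8.39 ± 0.123 on the log2 scale (edgeR, adjusted p = 8.63e-14). *Hoxa10* had 37.9 and 39.3 against 0.453 and 0.572 CPM and fell by 6.25 ± 0.12 (edgeR, adjusted p = 9.7e-13). *Hoxc10* and *Hoxa10* were thus well measured in the WT cells of this class and almost absent from its *Grhl3*-null cells. Of the WT cells, 184 and 194 lay in a sub-cluster that held 4 and 1 *Grhl3*-null cells of the class. Both falls were smaller without it, as given below. *Hoxd10* had 139 and 108 UMIs in WT and 6 and 1 in *Grhl3*-null. *Hoxd11* had 59 and 52 UMIs against 3 and 0, a 45.2-fold lower share (exact 95% interval 15.1 to 223, counting error only). The differences reached forward along the *HoxD* cluster, where *Hoxd9* had 31.1 and 34.9 against 3.74 and 2.52 CPM and fell by 3.42 ± 0.12 (edgeR, adjusted p = 6.36e-10). *Hoxd8* had 10.3 and 10.1 against 2.64 and 2.33 CPM and fell by 2.07 ± 0.129 (edgeR, adjusted p = 1.28e-07).

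Among the more rostral genes, *Hoxa9* had 112 and 115 against 56.1 and 56.9 CPM and fell by 1.04. *Hoxa6* (1.27 and 1.33 against 0.529 and 0.572 CPM) and *Hoxd4* (ENSMUSG00000101174, 1.22 and 1.23 against 0.491 and 0.572 CPM) were also called lower, from 13 to 28 UMIs a library. The genotypes did not overlap for these 3 rows. The other identifier of *Hoxd4* (ENSMUSG00000115956) had more UMIs (89 and 73 in WT, 112 and 96 in *Grhl3*-null). It was not called (log2 fold change 0.04, edgeR, adjusted p = 0.889). In all, 9 of the 31 tested rows were called lower, against 1.14% of all genes. By the adjusted p alone 21 rows were lower and 1 was higher, against 11.9% and 9.72% of all genes, and the higher gene was *Hoxb9* (318 and 350 against 401 and 399 CPM). *Hoxc9* had 149 and 147 against 74.8 and 78.8 CPM, a fall of 0.98 that stopped short of a call. *Hoxa11*, *Hoxc11* and groups 12 and 13 were too low in this class to be tested. The median over the Hox rows was -0.30, beside 0.0026 for all genes. With WT replicate 2 left out, 4 of the 9 rows stayed called (*Hoxc10*, *Hoxa10*, *Hoxd9* and *Hoxa9*), and *Hoxa6* and *Hoxd4* also lost their call without WT replicate 1 (adjusted p from edgeR 0.0930 and 0.107), *Hoxd4* also without *Grhl3*-null replicate 1 (0.0624). Most WT cells of this class were female and most *Grhl3*-null cells male.

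The share of cells with a *Hoxc10* UMI gave the same order. With each cell thinned to 7500 UMIs, 28.2% (exact 95% interval 24.4 to 32.3) and 30.9% (26.8 to 35.3) of WT neuroepithelium-like cells held a *Hoxc10* UMI, against 0.158% (0.00401 to 0.880) and 0 of 675 cells (up to 0.545%) in *Grhl3*-null. Without thinning the shares were 39.3% and 42.7% against 1.43% and 0.593%, at median depths between 34025 and 35812 UMIs. In erythroid-like cells, blood cells which should lack the gene, unthinned shares were 5.88% and 4.00% in WT and 0% and 4.48% in *Grhl3*-null, at median depths between 36345.5 and 47071 UMIs. In *Grhl3*-null replicate 1 the neuroepithelium-like share lay above the erythroid-like share, and in *Grhl3*-null replicate 2 below it. Those libraries held only 60 and 67 erythroid-like cells, so these shares cannot show whether the few *Hoxc10* UMIs are background. These intervals cover counting error only.

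The log2 fold change of 9 Hox rows lay lower in neuroepithelium-like than in neuromesodermal progenitor-like cells by a test of the difference itself, with the library as a block. Of all genes, 2.34% were called in this test in either direction. For *Hoxc10* the log2 fold changes differed by -4.76 (edgeR interaction, adjusted p = 3.18e-13), for *Hoxa10* by -3.28 (adjusted p = 1.36e-09) and for *Hoxd9* by -2.77 (adjusted p = 2.35e-18). For *Hoxb9* the log2 fold changes differed by -0.07 ± 0.0335 (SE), which was not called (edgeR interaction, adjusted p = 0.160). Of the WT cells, 184 and 194 of the neuroepithelium-like class and 87 and 78 of the progenitor-like class lay in a sub-cluster with almost no *Grhl3*-null cells. Without it, an alternative chosen after the data were seen, 1 of the 9 rows stayed called, against 1.16% of all genes. That row was *Hoxc10*, with a difference of -1.38 ± 0.421 (edgeR interaction, adjusted p = 0.0269), while *Hoxa10* (-0.24 ± 0.386) and *Hoxd9* (-0.53 ± 0.186) had adjusted p of 0.816 and 0.0692. Most of the difference between the classes thus rested on that sub-cluster. The classes also differed in sex, since female cells made up 84.6% and 80.5% of WT against 15.5% and 13.5% of *Grhl3*-null neuroepithelium-like cells, and 56.5% and 59.4% against 52.4% and 49.3% of progenitor-like cells.

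**Figure D3:**
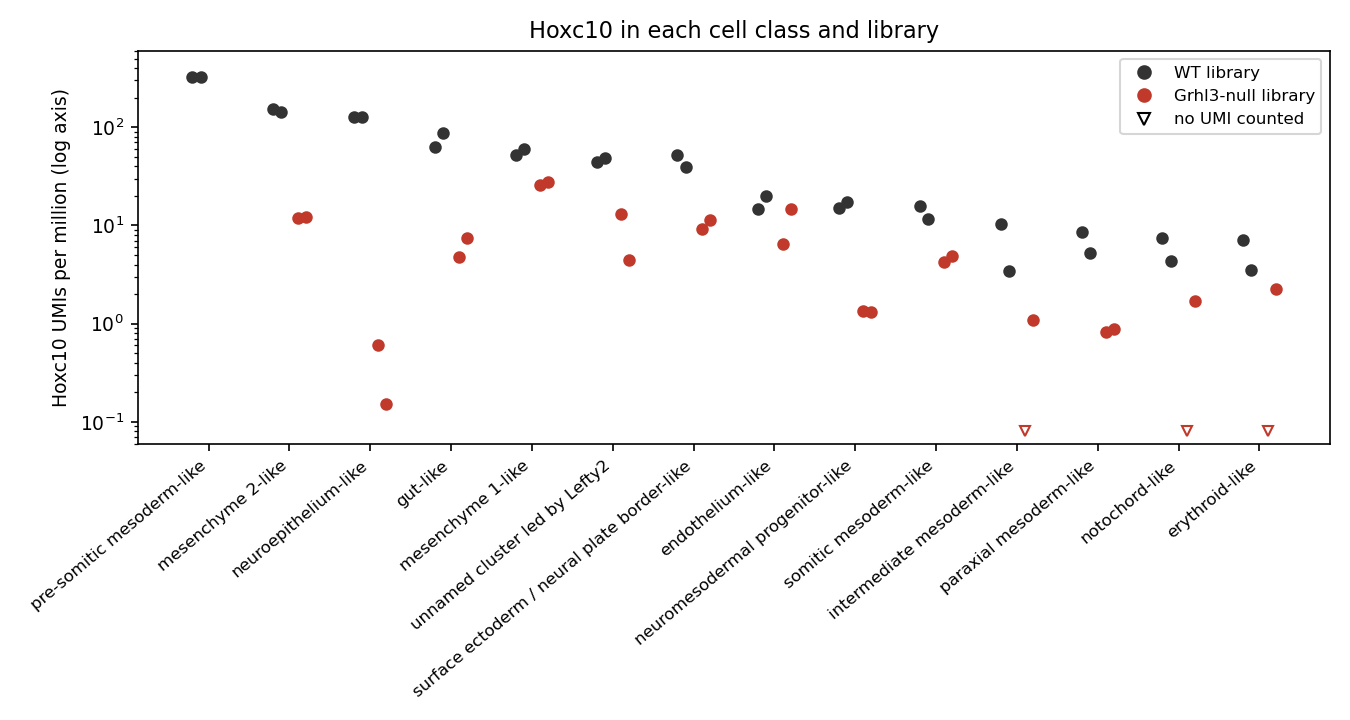
*Hoxc10* in each cell class, in CPM on a log axis, with each point a library and open triangles a library without a *Hoxc10* UMI. The WT values lie above the *Grhl3*-null values in every class but endothelium-like cells, and the classes are ordered by their mean WT level. The pre-somitic class has no *Grhl3*-null point, since those libraries held 4 and 2 such cells.

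In WT the genes of group 10, *Hoxa10*, *Hoxc10* and *Hoxd10*, had their highest mean level in pre-somitic mesoderm-like cells, the tissue from which somites bud. This class held 474 and 475 WT cells and 4 and 2 *Grhl3*-null cells, so genotypes were not compared within it. Of the WT cells 468 and 466 were called female and 0 and 0 male, so no cell called male stands behind these WT levels. The class had the highest WT level of the 14 classes with enough WT cells for 16 of the 39 Hox rows. *Hoxc10* reached 323 ± 0.386 CPM (SD, n = 2 libraries) there, ahead of mesenchyme 2-like cells with 149 ± 7.83. *Hoxa10* reached 84.5 ± 1.2 CPM, *Hoxd11* 39.5 ± 3.43 and *Hoxd9* 121 ± 8.23. For *Hoxd11* the class did not differ from mesenchyme 2-like cells beyond the spread between libraries (37.1 ± 7.79 CPM), nor did it for *Hoxd10* (21.5 ± 3.19 against 21.3 ± 1.83). *Hoxa11* and *Hoxc11* were highest in mesenchyme 2-like cells, with 10.4 ± 2.12 and 4.73 ± 0.485 CPM. Groups 12 and 13 summed to 1.51 ± 0.534 CPM in pre-somitic mesoderm-like cells, below the 11.1 ± 1.84 of gut-like and the 8.41 ± 0.269 of mesenchyme 1-like cells. Rostral genes were high in it too, such as *Hoxb1* with 195 ± 5.43 CPM, which notochord-like cells matched with 195 ± 5.00. In neuromesodermal progenitor-like cells 6 rows had their highest WT level, among them *Hoxc8* with 317 ± 0.847 CPM. Mesenchyme 1-like cells had the highest level of 10 rows in *Grhl3*-null and of 2 in WT, and they supplied 61.2% and 53.8% of the *Hoxc10* UMIs of the *Grhl3*-null libraries against 8.77% and 9.57% of those of WT.

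Somitic mesoderm-like cells were present in all libraries. They carried 11 markers of the study's somitic mesoderm list and 5 of its pre-somitic list, and their leading genes *Tbx6*, *Dll1* and *Dll3* are genes of unsegmented mesoderm, so the name follows the study's list and gives no stage. *Hoxc10* had 15.7 and 11.7 CPM in WT and 4.27 and 4.83 in *Grhl3*-null and fell by 1.59 ± 0.154 (edgeR, adjusted p = 9.06e-06). *Hoxd11* had 4.78 and 3.98 against 1.96 and 1.56 CPM and fell by 1.30 ± 0.184 (edgeR, adjusted p = 0.000328). The genotypes did not overlap for either gene. These were the 2 calls among 33 tested rows, with 0.369% of all genes called lower. Another 5 rows were lower and 14 higher on the adjusted p alone, 7 and 14 in all, against 7.5% and 7.5% of all genes. The higher genes lay in groups 1 to 9, and *Hoxa7* had 121 and 122 against 162 and 167 CPM. With the pre-somitic cells added, a choice made after the data were seen, 6 of 34 rows were called lower, against 0.842% of all genes, and by the adjusted p alone 12 were lower and 11 higher, against 13.2% and 11.6%. *Hoxc10* then had 97.5 and 96.1 against 4.34 and 4.82 CPM, and *Hoxc11* had 39 and 30 UMIs against 0 and 0, at least 9.90-fold lower.

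In paraxial mesoderm-like cells, where somites form, 4 of 31 rows were called lower, against 0.445% of all genes. *Hoxc10* had 8.48 and 5.18 against 0.824 and 0.874 CPM and fell by 3.04 ± 0.254 (edgeR, adjusted p = 5.76e-06). *Hoxd11*, *Hoxd10* and *Hoxa10* fell by 3.22, 2.56 and 1.66. On the adjusted p alone 14 rows were lower and 7 higher, against 12.3% and 9.17% of all genes, and the higher rows lay in groups 3 to 8. Female cells made up 70.9% and 68.6% of this class in WT and 11.6% and 10.8% in *Grhl3*-null. Female cells alone had 7 calls, all lower, against 0.956% of all genes, and only *Hoxc10* and *Hoxa10* among them were calls of the class as a whole. In male cells alone, with 63 and 61 WT cells, the 4 genes were too low to be tested. There 3 rows were called lower, against 1.45% of all genes, and 3 higher (*Hoxa7*, *Hoxa9* and *Hoxc5*), against 1.71%. *Hoxa7* had 140 and 151 against 37.0 and 45.8 CPM in female cells and 50.0 and 37.9 against 109 and 110 CPM in male cells, so that its direction was opposite in the sexes, and the same held for *Hoxa9*.

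The surface ectoderm and neural plate border is the tissue where the study found most *Grhl3*, with far less in neuromesodermal progenitors and neuroepithelium. In cells with its markers, *Hoxc10* had 51.9 and 39.7 CPM in WT and 9.17 and 11.5 in *Grhl3*-null and fell by 2.20 ± 0.125 (edgeR, adjusted p = 7.87e-12). *Hoxa10* had 13.6 and 13.1 against 5.80 and 5.36 CPM and fell by 1.30 ± 0.144 (edgeR, adjusted p = 7.91e-07). *Hoxa11* had 21 and 16 UMIs against 6 and 6 and fell by 1.53 ± 0.448 (edgeR, adjusted p = 0.0216). The genotypes did not overlap for these genes, which were the 3 calls among 33 rows, against 1.4% of all genes called lower. *Hoxa11* was not called without WT replicate 1, *Grhl3*-null replicate 1 or *Grhl3*-null replicate 2 (adjusted p from edgeR 0.160, 0.201 and 0.103). By the adjusted p alone 6 rows were lower and 3 higher, against 8.7% and 6.27% of all genes. Female cells made up 70.2% and 64.7% of the class in WT and 40.7% and 44.0% in *Grhl3*-null. Male cells alone had 3 calls (*Hoxc10*, *Hoxa10* and *Hoxd8*), all lower, against 1.38% of all genes. Female cells alone had *Hoxc10* called lower, against 1.6%, and *Hoxd1* higher, against 0.66%. *Hoxa7* was higher here than in any other WT class (235 ± 0.50 CPM) and had 229 ± 16.3 CPM in *Grhl3*-null.

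Gut-like cells, a class of gut endoderm not split by region, had 8 calls among 35 rows, against 0.45% of all genes. *Hoxc10* had 63.6 and 86.5 against 4.72 and 7.47 CPM, and *Hoxd11* 22.6 and 37.0 against 1.85 and 1.94 CPM. *Hoxd13*, a gene of the hindgut and genital outgrowth whose highest WT class this was, had 8.79 and 10.3 against 3.93 and 3.19 CPM and fell by 1.45 ± 0.17 (edgeR, adjusted p = 7.59e-06). *Hoxc11* had 33 and 29 UMIs against 1 and 0, a 79.6-fold lower share with an exact 95% interval of 13.8 to 3193. The genotypes stood apart for each of these genes. *Hoxa11*, *Hoxd10*, *Hoxa6* and *Hoxa10* fell by 3.94, 2.94, 2.21 and 1.5. Female cells made up 54.5% and 61.3% of the class in WT and 33.6% and 30.4% in *Grhl3*-null, and it was not fitted within a sex.

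Mesenchyme 2-like cells, a class led by *Col3a1* and *Nkx2-3*, had the most calls of any class, with 13 of 35 rows lower against 1.43% of all genes. *Hoxd11* had 42.6 and 31.6 against 0.617 and 0.134 CPM and fell by 6.66 ± 0.286 (edgeR, adjusted p = 1.42e-10). *Hoxc10* had 155 and 144 against 11.8 and 12.2 CPM, and *Hoxa10* 49.9 and 47.1 against 4.70 and 5.21 CPM. *Hoxd13* had 73 and 44 UMIs against 3 and 5, and *Hoxa13* 32 and 22 against 4 and 2. In this class all 6 genes of groups 10 and 11 were called, as were *Hoxd13* and *Hoxa13*, the only genes of groups 12 and 13 that could be tested. All 4 genes of group 9 fell by the adjusted p, 3 of them with a call, and *Hoxb9* fell by 0.28. *Hoxd10* and *Hoxa11* fell by 4.45 and 4.35, *Hoxc11* by 3.44, and *Hoxa6*, *Hoxa9*, *Hoxc9*, *Hoxc6* and *Hoxd9* by 1.17 to 2.17. *Hoxa5* rose, with 45 and 46.7 against 69.5 and 71.2 CPM. Of the 441 and 451 WT cells of the class, 158 and 170 lay in a sub-cluster that held 6 and 13 *Grhl3*-null cells. Without it *Hoxc10* had 70.9 and 77.7 against 11.9 and 12.1 CPM and fell by 2.62, while *Hoxd13* and *Hoxa13* were too low to be tested and *Hoxc6* changed by -0.84 without a call. Female cells made up 81.2% and 78.9% of the class in WT and 23.9% and 25.8% in *Grhl3*-null. In each sex alone, an alternative chosen after the data were seen, female cells had 12 calls, all lower, against 2.06% of all genes. Male cells, of which WT held 60 and 71, had *Hoxd10*, *Hoxa10* and *Hoxc10* called lower, against 1.68%, and *Hoxa2*, *Hoxa4* and *Hoxb1* higher, against 1.19%. *Hoxc10* fell in both sexes, with 186 and 176 against 29.4 and 34.8 CPM in female and 26.6 and 27.7 against 5.52 and 2.82 CPM in male cells. *Hoxd13* had 0 and 0 UMIs in WT male cells and 2 and 1 in *Grhl3*-null male cells, and *Hoxd11* 0 and 1 against 2 and 1, so neither was tested there.

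Mesenchyme 1-like cells, led by the limb and flank mesoderm genes *Prrx1* and *Hand2*, kept most of their Hox levels. *Hoxc10* had 51.6 and 60.3 against 25.9 and 27.4 CPM and fell by 1.05 ± 0.0645 (edgeR, adjusted p = 3.56e-07), and *Hoxd11* had 13.6 and 14.3 against 5.95 and 5.54 CPM and fell by 1.26. These were the 2 calls among 35 rows, against 0.273% of all genes. In notochord-like cells *Hoxd11* had 69 and 84 UMIs against 0 and 0, at least 36.8-fold lower, and 5 of 26 rows were called, against 0.39% of all genes. *Hoxd9* had 79.6 and 60.0 against 20.5 and 26.7 CPM there. In intermediate mesoderm-like cells, which give rise to the kidney, *Hoxc10*, *Hoxc9* and *Hoxd9* were the 3 calls among 26 rows, against 0.574% of all genes. *Hoxc10* had 52 and 16 UMIs there in WT and 0 and 5 in *Grhl3*-null. Female cells made up 70.9% and 68.8% of that class in WT and 19.1% and 24% in *Grhl3*-null, and it was not fitted within a sex. In the unnamed cluster led by *Lefty2*, whose cells were shallow (median 16212.5 UMIs), 5 of 26 rows were called, against 0.786% of all genes, and *Hoxb1* was among them with 89.4 and 89.1 against 33.5 and 37.9 CPM. In endothelium-like cells 0 of 29 rows were called, against 0.0873% of all genes (4 had an unadjusted p under 0.05 in edgeR), and in erythroid-like cells 0 of 18, against 0.0466% (5 with an unadjusted p under 0.05). DESeq2 was not run in these 2 classes. It was also not run in the gut-like, mesenchyme, notochord-like and intermediate mesoderm-like classes or in the cluster led by *Lefty2*. No member was called higher over all cells or in any of the 13 classes.

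**Figure D4:**
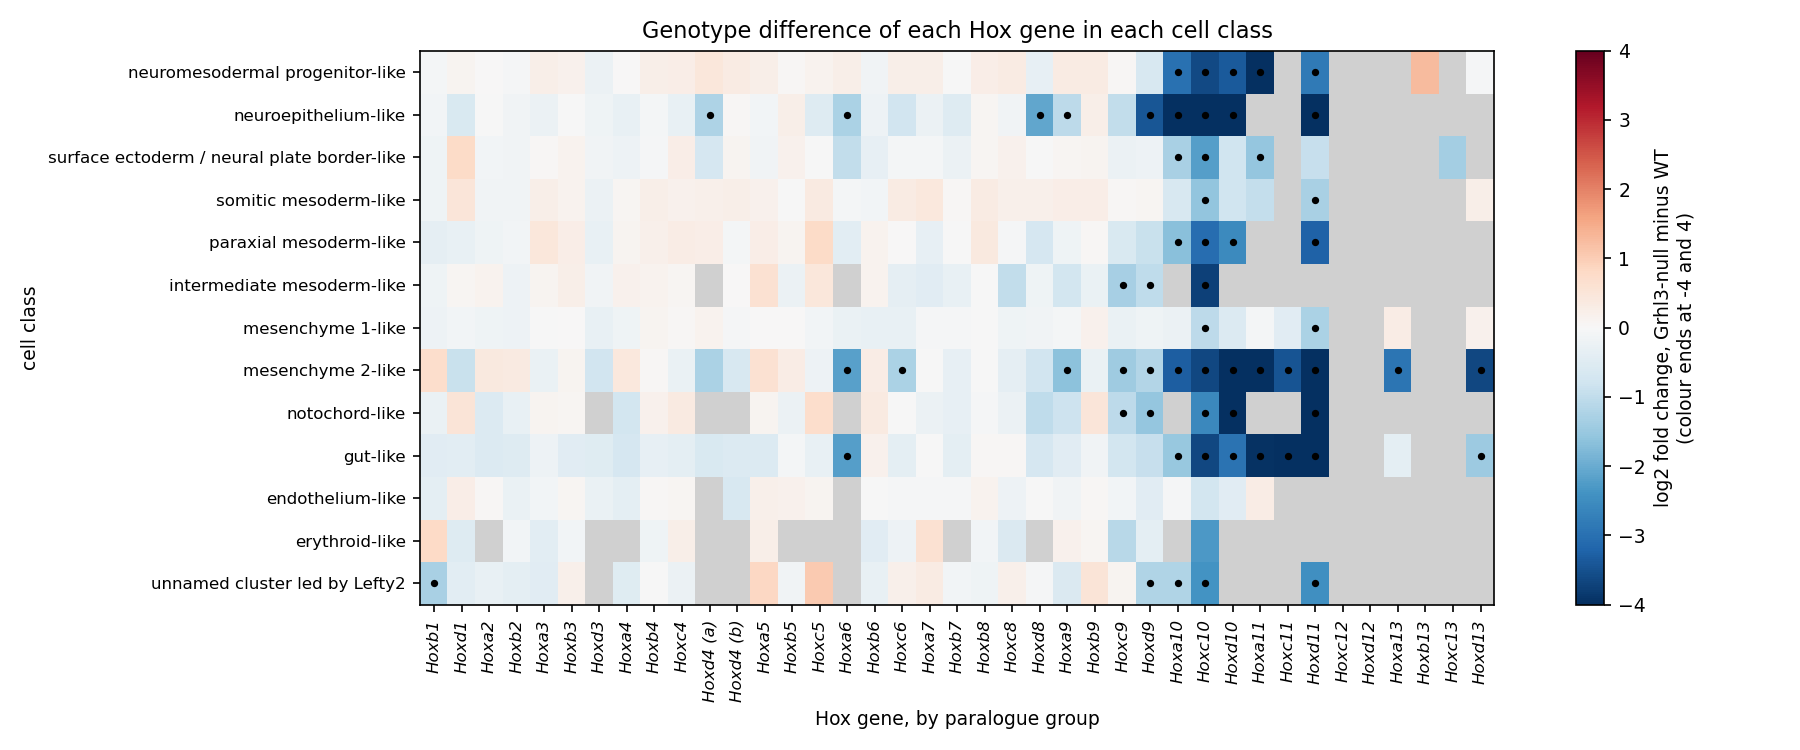
Log2 fold change (*Grhl3*-null minus WT) of each Hox row in each cell class, with cell classes on one axis and Hox rows, in order of paralogue group, on the other. Black dots are called genes, grey cells were not tested, and the 2 *Hoxd4* identifiers are marked a (ENSMUSG00000101174) and b. *Hoxc10* is called lower in 11 of the 13 classes shown, and the calls gather in groups 9 to 11.

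At a finer clustering, 3 sub-clusters held many WT cells and almost no *Grhl3*-null cells. They were 471 and 472 pre-somitic mesoderm-like cells of WT against 4 and 2 of *Grhl3*-null, 271 and 272 neuromesodermal progenitor-like cells against 8 and 1, and 158 and 171 caudal mesoderm-like cells against 6 and 13. Their WT cells carried *Hoxc10* at 321 and 321, 247 and 244, and 295 and 248 CPM, each above the 62.1 and 63.9 CPM of all WT cells. Of the second sub-cluster, 184 and 194 WT cells lay in the neuroepithelium-like class. Of the 271 and 272 WT cells of that sub-cluster, 246 and 248 were called female from *Xist* and Y-linked transcripts. Of the WT cells of the pre-somitic sub-cluster, 465 and 463 were female and 0 were male. With 5 and 3 embryos in the pools, a difference between genotypes in these cells and a difference between single embryos cannot be told apart.

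Without the 3 sub-clusters, an alternative chosen after the data were seen, 4 of the 6 genes stayed called over all cells, against 0.804% of all genes. *Hoxc10* had 27.9 and 28.5 against 7.12 and 7.87 CPM and fell by 1.93, *Hoxd11* fell by 2.16, *Hoxd10* by 1.2 and *Hoxc11* by 1.18. *Hoxa10* (15.7 and 16.9 against 10.0 and 9.24 CPM) and *Hoxa11* (1.97 and 1.99 against 1.28 and 1.19 CPM) then fell by 0.78 and 0.70, short of a call. In neuroepithelium-like cells 3 of the 9 calls were left. *Hoxc10* had 15.4 and 8.42 against 0.607 and 0.153 CPM there and fell by 4.98, *Hoxa10* had 5.70 and 3.62 against 0.455 and 0.572 CPM and fell by 3.20, and *Hoxd9* fell by 1.22. *Hoxd10* and *Hoxd11* were then too low to be tested, and *Hoxd8*, *Hoxa6* and *Hoxd4* changed by -0.83, -0.76 and -0.92 without a call. In mesenchyme 2-like cells 10 of the 13 rows stayed called, and neuromesodermal progenitor-like, paraxial, somitic and surface ectoderm-like cells had 5, 4, 2 and 3 calls, with the same genes as before. The share of all genes called was not taken for these fits of single classes, so their counts of Hox calls have no such share beside them. The *Hoxc10* difference over all cells and in neuroepithelium-like cells was thus smaller without these cells, and the gene stayed called in every class named here.

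The sexes of the pools differed as well. Cells called female made up 63.9% and 63.8% of the WT libraries and 37.6% and 35.6% of the *Grhl3*-null libraries, and in neuroepithelium-like cells 84.6% and 80.5% against 15.5% and 13.5%. In male cells of all classes, *Hoxc10* had 18.8 and 22.0 CPM in WT and 4.2 and 3.88 in *Grhl3*-null, and in female cells 86.6 and 87.9 against 12 and 15.3 CPM. The genotypes stood apart in each sex. Among male cells 8 rows were called lower, against 1.02% of all genes, and these were *Hoxc10*, *Hoxa10*, *Hoxd10*, *Hoxd11*, *Hoxa11*, *Hoxc11*, *Hoxd9* and *Hoxd13*. Among female cells 5 rows were called lower (*Hoxc10*, *Hoxa10*, *Hoxd10*, *Hoxd11* and *Hoxc11*), against 1.86% of all genes, and *Hoxa13* was called higher, against 1.81%. *Hoxa13* had 0.594 and 0.438 against 1.23 and 0.955 CPM in female cells and 0.790 and 0.623 against 0.503 and 0.461 CPM in male cells.

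Within classes the sexes differed more. In neuromesodermal progenitor-like cells *Hoxc10* had 6.49 and 6.51 against 0.50 and 1.29 CPM in male cells and 18.8 and 17.0 against 1.86 and 1.73 in female cells. The male cells had 3 calls (*Hoxc10*, *Hoxa10* and *Hoxd9*), against 0.177% of all genes, and the female cells 4 (*Hoxc10*, *Hoxa10*, *Hoxd10* and *Hoxd11*), against 0.916%. *Hoxc10* and *Hoxa10* were therefore lower in *Grhl3*-null progenitors of both sexes. In neuroepithelium-like cells the female cells had 9 calls, against 1.89% of all genes, with *Hoxc10* at 155 and 164 against 2.10 and 0.505 CPM. The male cells held few *Hoxc10* UMIs in either genotype, with 5 and 3 in WT and 4 and 1 in *Grhl3*-null (1.77 and 0.873 against 0.242 and 0.0577 CPM), so the gene was not tested there. *Hoxd9* was also scarce in them and not tested, with 0.708 and 0.873 against 1.51 and 0.924 CPM (2 and 3 against 25 and 16 UMIs), both *Grhl3*-null values being the higher, and *Hoxd8* had 1.42 and 3.49 against 2.48 and 2.42 CPM, so that the genotypes overlapped for *Hoxd8*. Among male neuroepithelium-like cells 1 row (*Hoxd4*) was called lower, against 0.49% of all genes, and 1 (*Hoxc9*) higher, against 0.988%. *Hoxb9* had 276 and 284 against 552 and 557 CPM in female and 518 and 595 against 354 and 363 CPM in male neuroepithelium-like cells. WT female cells thus carried more *Hoxc10* and less *Hoxb9* than WT male cells in this class, and only 59 and 62 WT cells and 98 and 91 *Grhl3*-null cells stood behind the rarer sex of each genotype.

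The genotype difference itself was tested between the sexes, also after the data were seen. Over all cells 5 members differed by at least 1 on the log2 scale, against 5.56% of all genes, in neuromesodermal progenitor-like cells 2, against 1.55%, and in neuroepithelium-like cells 9, against 6.86%. Over all cells the difference for *Hoxc10* was -0.37 ± 0.109 (SE), which passed the adjusted p (edgeR, 0.0164) but not the size of a call, and in neuromesodermal progenitor-like cells it was -0.49 ± 0.428 (edgeR, adjusted p = 0.523). The sex of a cell here also names the embryo or embryos it came from, and sex and embryo cannot be told apart.

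**Figure D5:**
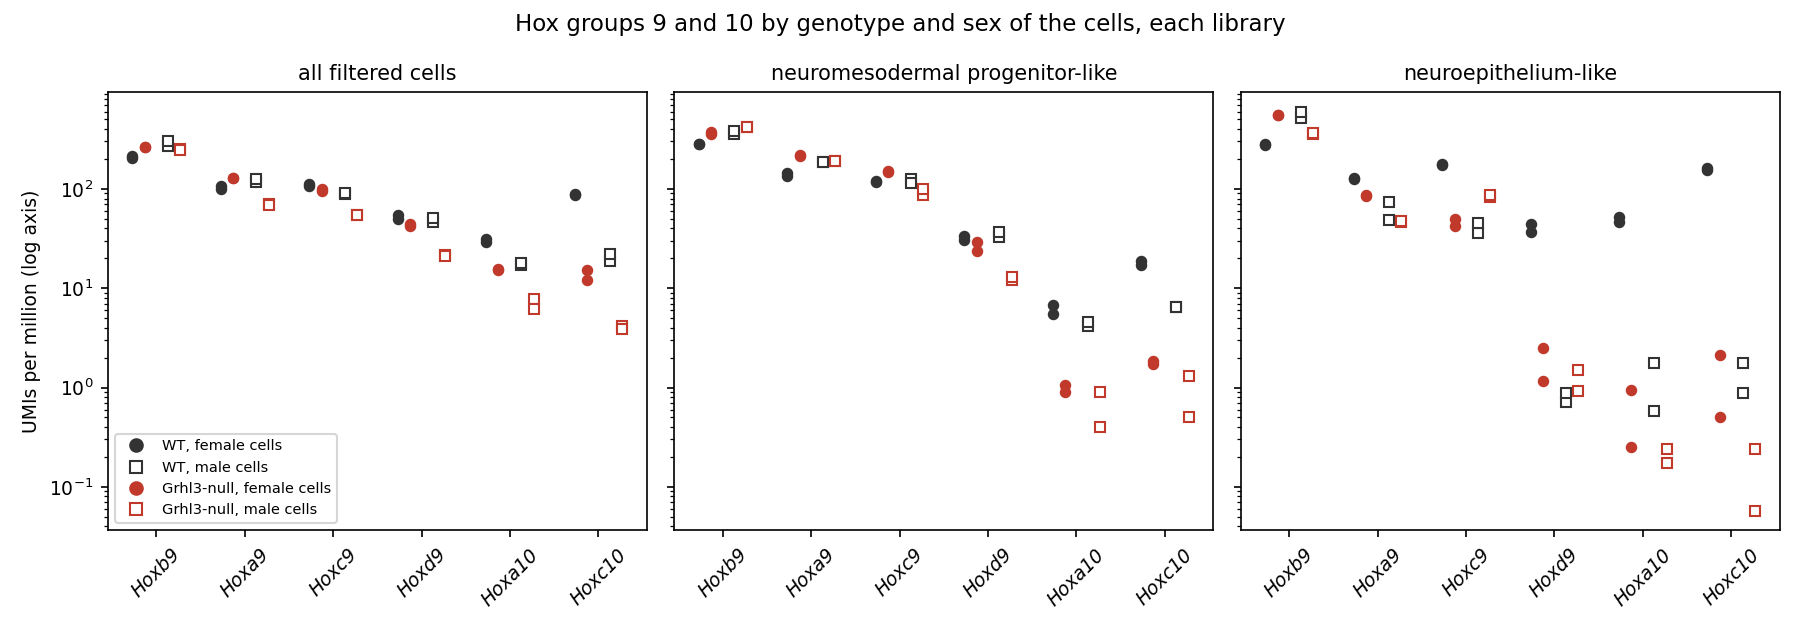
Hox genes of groups 9 and 10 in female (filled circles) and male (open squares) cells of each library, in CPM on a log axis, for all filtered cells, neuromesodermal progenitor-like cells and neuroepithelium-like cells. In the first 2 panels *Hoxc10* and *Hoxa10* lie lower in *Grhl3*-null for either sex. In the third panel the WT female cells alone reach 155 and 164 for *Hoxc10*.

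Among the other genes that act with Hox genes, the caudal-type factors were lower over all cells by the adjusted p, each by less than a call needed. *Cdx2* had 208 and 217 CPM in WT and 172 and 173 in *Grhl3*-null, *Cdx4* 226 and 233 against 186 and 183, and *Cdx1* 61.2 and 61.9 against 50.8 and 47.6. The falls were 0.34, 0.34 and 0.35 on the log2 scale. Class values of these genes and those below include the sub-clusters nearly absent from *Grhl3*-null. Those held 184 and 194 of the WT neuroepithelium-like cells and 158 and 170 of the WT mesenchyme 2-like cells. Both classes were mostly female in WT and mostly male in *Grhl3*-null. These genes are not given without those cells or within a sex. In neuroepithelium-like cells *Cdx2* had 189 and 190 against 77.5 and 75.6 CPM and fell by 1.34 (edgeR, adjusted p = 9.09e-11), and *Cdx4* had 169 and 173 against 88.8 and 86.0 CPM, a change of -0.996 that stopped just short of the size of a call. In neuromesodermal progenitor-like cells *Cdx2* had 396 and 410 against 386 and 399 CPM and *Cdx4* 432 and 429 against 406 and 431 CPM, so that the genotypes overlapped for both. *Cdx1* had 159 and 154 against 109 and 107 CPM there and fell by 0.55 (edgeR, adjusted p = 1.75e-06). In mesenchyme 2-like cells *Cdx4* and *Cdx2* fell by 1.67 and 1.01, and in the cluster led by *Lefty2* *Cdx1*, *Cdx4* and *Cdx2* fell by 1.40, 1.10 and 1.10.

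Of the 5 posterior growth signals, *Fgf8* fell by 1.93 in neuroepithelium-like cells, where it had 90.6 and 87.6 against 22.1 and 25.6 CPM. *Fgf8* and *Wnt3a* fell in the cluster led by *Lefty2* (by 1.82 and 2.13), and *Wnt3a* fell in mesenchyme 2-like cells by 1.52. Of the 5 retinoic acid genes, *Aldh1a2*, which makes retinoic acid, rose in neuroepithelium-like cells (30.1 and 23.5 against 66.2 and 66.2 CPM) and in mesenchyme 2-like cells (12.7 and 13.2 against 45.7 and 43.9 CPM) and fell in somitic mesoderm-like cells (25.9 and 25.7 against 11.4 and 9.66 CPM). *Cyp26a1*, which degrades it, fell in neuroepithelium-like cells (45.7 and 51.3 against 11.8 and 17.4 CPM) and in the cluster led by *Lefty2*, and rose in surface ectoderm-like cells (43.7 and 37.8 against 98.2 and 89.8 CPM). The receptor gene *Rarb* rose by 1.03 in neuroepithelium-like cells. The direction of these genes therefore depended on the class, and the limits on neuroepithelium-like and mesenchyme 2-like cells given above apply here too.

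Of the 9 TALE homeodomain genes, whose products bind DNA together with Hox proteins, *Pbx3* rose by 1.17 in neuroepithelium-like cells, *Meis1* and *Meis2* rose by 1.92 and 1.02 in notochord-like cells and *Pbx4* fell by 1.41 in mesenchyme 2-like cells. *Evx1*, which borders the *HoxA* cluster at its caudal end, fell in neuroepithelium-like (16.6 and 16.3 against 6.46 and 6.18 CPM) and mesenchyme 2-like cells (by 2.41) and in the cluster led by *Lefty2*, and *Evx2*, which borders *HoxD*, fell in gut-like cells by 1.49. Of the non-coding RNAs within the clusters, 5 of 7 found in the files were tested over all cells, and *Hoxaas3* fell by 1.14 in mesenchyme 2-like cells. None of the 6 Polycomb and Trithorax genes and none of the 4 genes of axial timing was called in any class. By the adjusted p alone over all cells, where 18.5% of all genes were lower and 17.1% higher, 1 TALE gene was lower and 7 higher, 4 posterior growth signals were lower and 0 higher, and 2 retinoic acid genes were lower and 3 higher. Of the other lists, 1 Polycomb gene (*Bmi1*) was higher, 1 gene of axial timing was lower and 2 were higher, 3 non-coding RNAs were lower and 1 was higher, and *Evx1* was lower.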

How the data were processed

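Cells from the caudal part of 5 WT and 3 *Grhl3*-null embryos were pooled by genotype, and 2 reactions of a 10x Genomics 3′ kit were run on each pool. The authors processed the reads with Cell Ranger (mm10) and deposited UMI counts per gene and barcode, unfiltered by the steps below. Barcodes under 3000 genes or 7500 UMIs, or over 7% mitochondrial UMIs, were dropped. The remaining cells were clustered with Seurat 5.3.0 and sctransform 0.4.2 (R 4.3.3; 3000 variable features, 30 principal components, 20 neighbours, Louvain resolution 0.4) without Hox, sex-linked and haemoglobin genes, and clusters were named from the study's marker table without its Hox genes. Doublets were not removed in the values reported, and leaving out the 5% of cells with the highest scanpy 1.11.5 doublet score was an alternative.

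Sums of UMIs over a class in a library were tested where each library held at least 20 cells. Genotypes were compared with edgeR 4.0.16 (quasi-likelihood, TMM, filterByExpr, Benjamini-Hochberg over all genes tested). Calls required an adjusted p below 0.05 and a change of 1 or more on the log2 scale. Standard errors are the log2 fold change divided by the square root of F. Levels are CPM within the class. A male call needed 2 or more UMIs from 4 Y-linked genes with *Xist* at 2 or fewer, and a female call 3 or more from *Xist* with no more than 1 Y-linked UMI. The members and the gene lists were chosen with earlier results of these data known. Values in every library are given for many of the called members (at most the 8 with the largest change in a class). They are also given for the highest WT member of each cluster in groups 1 to 3, 4 and 5, 6 to 8, 9, and 10 to 13. In some classes called members are given by fold change, name or count alone. The other members are given by range and count. Tested on simulated data with 200 genes changed by 2 on the log2 scale, edgeR recovered 195 over all cells (17009 genes) with 3 wrong calls. Alternatives were DESeq2 1.42.0, other filters, clustering settings, a replicate block, each library left out and each sex alone. The remaining clustered Hox gene was not analysed here.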

Additional observations from a re-analysis of the deposited data

Results flagged for a closer look

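The genotype difference of 9 Hox rows differed between neuroepithelium-like and neuromesodermal progenitor-like cells (edgeR interaction, adjusted p under 0.05 and a difference of at least 1). The log2 fold change in neuroepithelium-like cells was lower by 4.76 for *Hoxc10* (difference -4.76), 3.28 for *Hoxa10* (-3.28), 2.77 for *Hoxd9* (-2.77) and 2.60 for *Hoxd11* (-2.60). For *Hoxd8*, *Hoxd4* (ENSMUSG00000101174), *Hoxa6*, *Hoxa9* and *Hoxc9* the differences were -1.73, -1.69, -1.48, -1.37 and -1.02. The adjusted p-values ran from 7.42e-23 (*Hoxa9*) to 0.0372 (*Hoxd11*). For the other identifier of *Hoxd4* (ENSMUSG00000115956) the difference was -0.28, which was not called (edgeR interaction, adjusted p = 0.452). Without the sub-clusters nearly absent from *Grhl3*-null, *Hoxc10* alone stayed called (-1.38, edgeR adjusted p = 0.0269). The sex makeup of the genotypes differed far more in neuroepithelium-like than in progenitor-like cells.

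The genotype difference also differed between female and male cells. Over all cells the log2 fold change was higher in female cells by 1.61 for *Hoxd13*, 1.61 for *Hoxa13*, 1.14 for *Hoxd1*, 1.10 for *Hoxa9* and 1.09 for *Hoxc8*. *Hoxc8* had 221 and 233 CPM in WT and 148 and 151 in *Grhl3*-null male cells, and 162 and 174 against 237 and 237 in female cells. In neuromesodermal progenitor-like cells the difference was 1.17 for *Hoxd9* and 1.00 for *Hoxd8*. In neuroepithelium-like cells it was -5.17 for *Hoxd9*, -4.53 for *Hoxd10*, -4.05 for *Hoxa10*, -4.01 for *Hoxc10*, -3.07 for *Hoxc9*, -2.92 for *Hoxd8* and -2.33 for *Hoxd3*, and 1.54 for *Hoxb9* and 1.54 for *Hoxb8*. The sign of this difference for *Hoxd9* and *Hoxd8* was thus opposite in the 2 classes. Only 59 and 62 WT male cells stood behind the neuroepithelium-like values. The sub-cluster nearly absent from *Grhl3*-null, most of whose WT cells were female, was kept in these tests. The adjusted p-values from edgeR ran from 9.23e-25 (*Hoxb9* and *Hoxc9*) to 0.0322 (*Hoxd10*). In neuroepithelium-like cells *Hoxd10*, *Hoxa10* and *Hoxc10* rested on few UMIs in male cells, and *Hoxd9* on few in WT male cells. Sex and embryo cannot be told apart in these pools.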

How the results depend on the processing

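Among the calls retested for direction, no gene that could be tested again changed direction under an alternative. These were the calls over all cells and in pre-somitic and somitic cells together. They also included neuromesodermal progenitor-like, somitic, paraxial, neuroepithelium-like (without *Hoxa9*, its smallest call) and surface ectoderm-like cells. Mesenchyme 2-like calls were repeated only without the sub-clusters and in each sex. Calls of the remaining classes were not retested. In male cells alone, *Hoxd9* in neuroepithelium-like and *Hoxd13* in mesenchyme 2-like cells, both called lower, had higher levels in *Grhl3*-null but too few UMIs for a test. Some genes short of a call were called higher in male cells alone, *Hoxc9* in neuroepithelium-like cells and *Hoxa7*, *Hoxa9* and *Hoxc5* in paraxial mesoderm-like cells among them. Of the values for single genes, 435 stayed on their side of the thresholds and 30 fell short of them, and of the counts and levels 102 stayed within the limits and 23 moved. Genes that an alternative could not test, or gave no adjusted p for, are left out of the 435 and 30. Male cells alone thus supplied 18 values and DESeq2 26, against 34 with at most 5% mitochondrial UMIs. Leaving out 1 library gave 6 to 7 calls over all cells, 4 to 5 in neuromesodermal progenitor-like cells, 2 in somitic mesoderm-like, 4 to 5 in paraxial mesoderm-like, 2 to 4 in surface ectoderm-like and 6 in pre-somitic and somitic cells together. In neuroepithelium-like cells it gave 4 to 10, with 4 without WT replicate 2, where *Hoxd8*, *Hoxd10*, *Hoxd11*, *Hoxa6* and *Hoxd4* had adjusted p between 0.0523 and 0.145 in edgeR. A lone library is assumed to vary like the other genotype. DESeq2 called 6 members over all cells, and 1 in neuromesodermal progenitor-like (against 5), 1 in somitic (against 2) and 2 in paraxial mesoderm-like cells (against 4), where it gave no adjusted p for 4, 1 and 2 of the genes called by edgeR. It called 7 of 9 in neuroepithelium-like and 2 of 3 in surface ectoderm-like cells, with a p for each gene called by edgeR, and 5 of 6 in pre-somitic and somitic cells together. With Hox genes kept in the clustering, and with 50 principal components, somitic mesoderm-like cells had 4 calls. At resolution 0.8, neuroepithelium-like cells had 3 and surface ectoderm-like cells 1. Without the sub-clusters nearly absent from *Grhl3*-null, neuroepithelium-like cells and the pre-somitic and somitic cells together had 3 each, and 1 row differed between neuroepithelium-like and neuromesodermal progenitor-like cells (9 with them). Male cells alone gave 3 calls in neuromesodermal progenitor-like cells, 2 in neuroepithelium-like cells (1 in each direction) and 2 in the pre-somitic and somitic cells together, and in paraxial mesoderm-like cells female cells alone gave 7 (2 of them among the 4 of the class) and male cells 6 (3 in each direction, none among the 4). Female surface ectoderm-like cells gave 2 (1 in each direction). Without a filter on low counts, 1 member differed between the sexes in neuromesodermal progenitor-like cells (2 with it).

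With Hox genes kept in the clustering, the WT level of groups 10 to 13 moved from 26.2 to 17.5 CPM in neuromesodermal progenitor-like, 31.1 to 12.5 in somitic, 174 to 169 in neuroepithelium-like and 479 to 525 in pre-somitic mesoderm-like cells. Without thinning, the share of WT cells with a *Hoxc10* UMI was 20.9% (7.10% thinned), 41.0% (29.6%) and 33.1% (19.9%) in neuromesodermal progenitor-like, neuroepithelium-like and all cells.

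Replicate numbers name reactions and do not pair the samples across the pools. With them as a replicate block, the calls were 7 over all cells, 6 in neuromesodermal progenitor-like (5 lower, 1 higher), 2 in somitic, 4 in paraxial, 9 in neuroepithelium-like, 4 in surface ectoderm-like and 6 in the pre-somitic and somitic cells. The deviations of same-numbered libraries had r = 0.018 over all cells and 0.114 in neuromesodermal progenitor-like cells, across genes. Each sum rests on 1 pool a genotype, so the p-values cover the spread between reactions alone.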
